A study of Mus musculus with 27 samples.

Results

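A set of 8 genes for enzymes of itaconate, nitric oxide, arginine, tryptophan and prostanoid metabolism was followed across 8 groups of mouse cells on 27 single-colour Illumina bead arrays: Acod1, Nos2, Arg1, Arg2, Ass1, Ptgs1, Ptgs2 and Ido1. All probes that the array's annotation pairs with these genes were taken, 11 of the 45281 probes on the array, for 7 of the 8 genes. Ptgs1 is named only. To be tested, a gene needed 1 probe detected (p below 0.05) on 3 arrays or more, which held for 6 members among the 12814 genes tested in all. Nos2 was tested through 1 of its probes, while both probes of Ptgs2 stayed below this filter. By the RefSeq table, Acod1 lies on chromosome 14, Nos2 on 11, Arg1 on 10, Arg2 on 12, Ass1 on 2, Ptgs2 on 1 and Ido1 on 8.

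All cells were of the C57BL/6 strain, and no drug, cytokine or stimulus is named for any group. The arrays labelled microglia (3) and astrocyte (3) came from brain cells of day 3, and the neuron arrays (3) from brain of embryonic day 15 to 16. ESdM, microglia grown from mouse embryonic stem cells, comprised the lines ESdM 20 and ESdM 22 with 3 arrays each, after more than 51 days of culture. MF (4 arrays) and BM-DC (3 arrays) came from bone marrow at day 7, and the labels do not spell out either abbreviation. Naive CD8 T cells from spleen of mice of 6 to 8 weeks had 5 arrays, named CD8T here. Age and cell type cannot be told apart where they differ together, and nothing says that replicates were separate cultures or animals, so that the spread behind each p-value is that among these samples and may be technical. The labels do not say whether each ESdM line was derived from 1 clone.

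Macrophages and microglia that sense microbes or interferon switch on a small set of enzymes that turn common metabolites into signals or toxins. Acod1 diverts the citrate cycle intermediate cis-aconitate into itaconate, which inhibits succinate dehydrogenase and is antimicrobial. Nos2, the inducible nitric oxide synthase, oxidises arginine to nitric oxide and citrulline, Ass1 carries out the first step that recycles citrulline to arginine, and the arginases Arg1 (cytosolic) and Arg2 (mitochondrial) draw on the same arginine to make ornithine and urea. Ido1 begins the breakdown of tryptophan to kynurenine, and Ptgs1 and Ptgs2, the cyclooxygenases, make the precursor of prostaglandins and thromboxane.

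RefSeq promoter windows were at hand for 4 of the 8 members, and 3 are printed as the 250 bases before the annotated start, 5′ to 3′ on the gene's own strand, in build GRCm38.p6. Acod1 and Ass1 are shown because both differed between ESdM and the arrays labelled microglia, and Ptgs2 because its probes stayed at background in nearly every sample. Capitals mark every match, on either strand, to one of 8 short motifs: kappaB GGGANTTTC, GAS TTCNNNGAA, ISRE core GAAANNGAA, C/EBP TTNNGNAA, CRE core TGACGT, AP-1 TGANTCA, HIF core ACGTG and, for the TATA box, TATAAA.
Acod1: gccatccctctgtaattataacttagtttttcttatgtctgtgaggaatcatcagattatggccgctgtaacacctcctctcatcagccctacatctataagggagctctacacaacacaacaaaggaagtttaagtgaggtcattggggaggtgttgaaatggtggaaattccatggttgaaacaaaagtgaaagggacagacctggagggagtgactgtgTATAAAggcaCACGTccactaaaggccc
Ass1: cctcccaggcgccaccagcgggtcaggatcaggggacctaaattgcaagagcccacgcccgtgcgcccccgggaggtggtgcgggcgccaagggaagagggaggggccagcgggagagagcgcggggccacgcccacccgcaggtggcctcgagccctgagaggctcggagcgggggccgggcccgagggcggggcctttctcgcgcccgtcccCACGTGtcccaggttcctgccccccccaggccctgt
Ptgs2: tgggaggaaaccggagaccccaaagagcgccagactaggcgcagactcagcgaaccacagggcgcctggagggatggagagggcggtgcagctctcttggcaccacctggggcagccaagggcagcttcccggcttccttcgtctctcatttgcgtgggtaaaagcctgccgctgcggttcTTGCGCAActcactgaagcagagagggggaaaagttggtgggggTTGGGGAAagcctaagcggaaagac
The Acod1 window is chr14:103046762-103047011, the Ass1 window chr2:31470020-31470269 and the Ptgs2 window chr1:150099781-150100030, all on the plus strand. In the Acod1 window the TATA letters lay at -28 to -23 from the start and the HIF core letters, on the reverse strand, at -18 to -14. In the Ass1 window the HIF core letters occurred on both strands in overlapping positions, -36 to -32 and -35 to -31. The Ptgs2 window held the C/EBP letters at -69 to -62 and at -25 to -18. Over the same 250 bases of all 32851 windows of the table, 12.4% held the TATA letters, 16.6% the HIF core, 36.8% the C/EBP letters, 0.941% kappaB, 7.02% GAS, 7.13% the ISRE core, 6.47% the CRE core and 6.75% AP-1. These are matches of letters and no measure of binding, and the windows of Ptgs1 and these 3 genes held none of the other motif letters.

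Levels below are log2 normalized intensities after background correction, on which probes without signal lie near 4.2, and a probe counts as detected on an array at a detection p below 0.05. Levels of different probes were not compared with each other. Between 14247 and 17533 probes were detected per array. Median raw intensity was 27.6 to 28.6 on the BM-DC arrays and 80.1 to 113 on all others, and BM-DC, MF and CD8T lay on chips of their own, so that chip and cell type cannot be told apart there. Microglia and ESdM shared 2 chips, and astrocytes and neurons shared 1 other chip. Chip and cell type therefore also cannot be told apart where microglia or ESdM are compared with astrocytes or neurons. Of 9 microglia markers with a probe, 2 were detected on all arrays labelled microglia and 6 on none. Tmem119, P2ry12, Cx3cr1 and Fcrls were among those 6, whereas 7 of the 9 were detected on all astrocyte arrays. The number detected on all arrays was 3 in ESdM 20, 2 in ESdM 22, 5 in MF and 3 in BM-DC. In each ESdM line 4 of the 9 were detected on none. Of 12 macrophage markers, 11 were detected on every array labelled microglia, 9 in each ESdM line, 12 in MF and also 11 on all astrocyte arrays, with summed levels (log2 of the summed intensity) of 14.53 to 14.62 for microglia, 14.47 to 14.80 for ESdM and 14.05 to 14.61 for astrocytes.

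**Figure D1:**
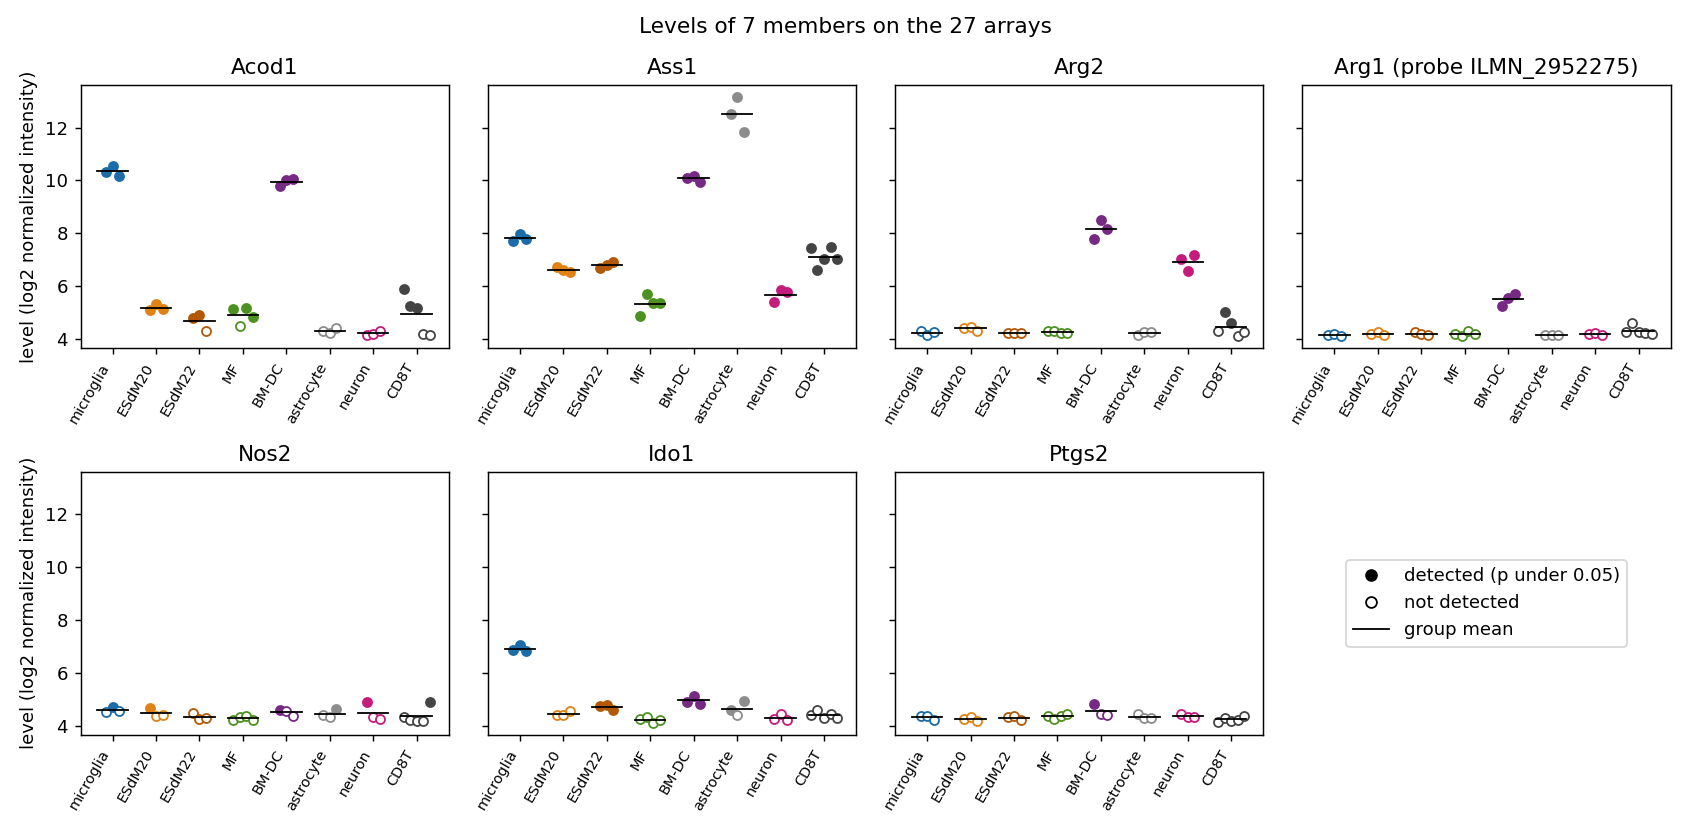
Level of 1 probe for each of 7 members (y axis, log2 normalized intensity) on the 27 arrays by group (x axis). Arg1 is shown by its second probe (ILMN_2952275) and not by the probe that stood for the gene in the tests. Points are arrays, filled where the probe was detected at p under 0.05, and lines are group means. Acod1 was high on the microglia and BM-DC arrays, Ido1 highest on the microglia arrays, Ass1 highest on the astrocyte arrays and detected on all 27, Arg2 detected throughout BM-DC and neurons, and Nos2 and Ptgs2 lay near background.

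Acod1 separated the arrays into a high and a low class. Its level (probe ILMN_2433955) was 10.32, 10.55 and 10.15 on the arrays labelled microglia. On the BM-DC arrays it was 9.79, 10.03 and 10.06. These 6 arrays stood far above the other 21, the highest of which was a CD8T array at 5.89. In ESdM 20 the level was 5.10, 5.32 and 5.16, with the probe detected on all 3 arrays, and in ESdM 22 it was 4.81, 4.90 and 4.32, detected on 2 of 3. The MF arrays were at 5.15, 4.49, 5.20 and 4.83, detected on 3 of 4, and overlapped those of both ESdM lines. Astrocyte arrays (4.24 to 4.41) and neuron arrays (4.17 to 4.33) detected Acod1 on none.

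The second Acod1 probe (ILMN_1237712) gave the same separation, with 9.26, 9.57 and 9.14 for microglia, 9.40, 9.50 and 9.47 for BM-DC, and at most 4.72 in ESdM, detected there on 2 of 6 arrays. In CD8T the first probe was detected on arrays 1 to 3 (5.89, 5.26 and 5.18) and not on arrays 4 and 5 (4.19 and 4.17). Arrays 4 and 5 shared a chip that held none of arrays 1 to 3, so chip cannot be told apart from this split. Their median raw intensity was 107.8 and 108.9, against 90.0, 89.9 and 86.8 on arrays 1 to 3. The granulocyte marker S100a8 was at 9.09, 7.49 and 7.73 on CD8T arrays 1 to 3 and at 4.90 and 6.83 on arrays 4 and 5, and S100a9 was at 8.71, 7.59 and 7.55 against 4.29 and 6.20. The summed level of the 10 granulocyte and mast cell markers ranged from 7.75 to 10.26 in CD8T, where Mpo, Cpa3, Mcpt8 and Prg2 were detected on no array, and its part in the Acod1 values was not tested.

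Ido1 was high on the microglia arrays alone. Its level there was 6.86, 7.06 and 6.82. BM-DC arrays followed at 4.92, 5.15 and 4.84, just above background yet detected on all 3, and ESdM 22 at 4.74, 4.78 and 4.62, also detected on all 3. In ESdM 20 (4.43, 4.40 and 4.55) the probe was detected on none, and the arrays of the 2 lines did not overlap, as held for 12.9% of all genes. Astrocyte arrays detected it on 2 of 3 (4.62, 4.43 and 4.93), and no MF, neuron or CD8T array detected it. Groups from ESdM 22 downward overlapped their neighbour in the order of means.

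**Figure D2:**
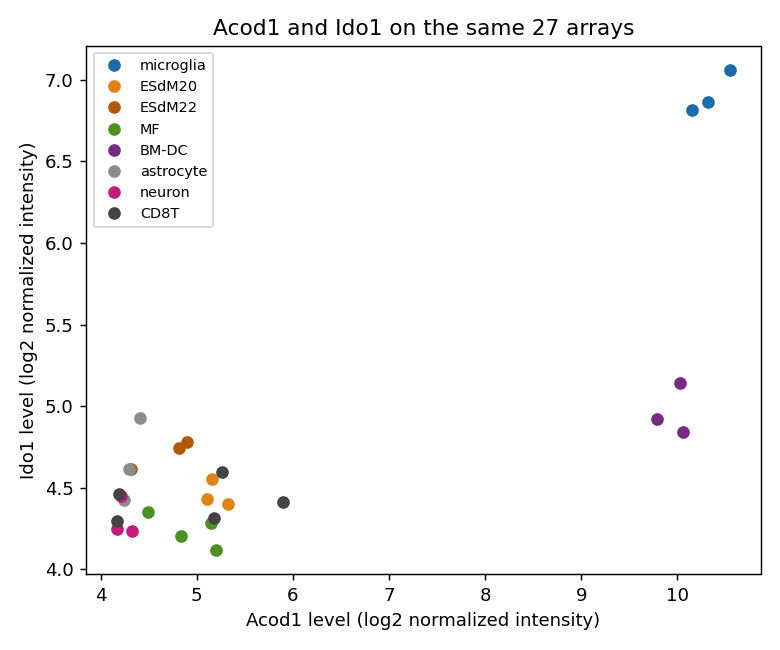
Level of Acod1 (x axis) against that of Ido1 (y axis), both log2 normalized intensity, with 1 point per array coloured by group. The 3 microglia arrays lie high on both axes, the 3 BM-DC arrays are high for Acod1 with Ido1 between 4.84 and 5.15, and the other 21 arrays lie at Acod1 levels of at most 5.89.

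Over the 27 arrays Acod1 and Ido1 had a Pearson r of 0.79, as a description of points that share groups and chips. The genes whose levels followed Acod1 most closely were Ifi205 (r = 0.98), an interferon-inducible gene, Hal (0.93), which encodes histidine ammonia-lyase, and Pstpip2 (0.92), a regulator of the actin cytoskeleton in macrophages. Those closest to Ido1 were Serpina3f (0.95), a protease inhibitor gene, Cxcl10 (0.95), an interferon-inducible chemokine, and Batf2 (0.95), an interferon-inducible transcription factor. The BM-DC arrays are where the Acod1 and Ido1 patterns part, as both are detected there but only Acod1 is near its highest level.

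Ass1 was detected on all 27 arrays. Its level was 12.52, 13.16 and 11.85 in astrocytes. It was 10.10, 10.18 and 9.95 in BM-DC and 7.73, 7.98 and 7.78 in microglia. These 3 groups did not overlap each other or any group below them. Of all genes, 68.3% had no overlap between microglia and astrocytes and 63.4% none between microglia and BM-DC. CD8T arrays ranged from 6.62 to 7.48 with a median of 7.05, ESdM 20 arrays were at 6.72, 6.63 and 6.55, and ESdM 22 arrays at 6.71, 6.79 and 6.90, so that CD8T overlapped ESdM 22 and the ESdM lines overlapped each other. Neurons (5.39, 5.87 and 5.79) and MF (4.88, 5.70, 5.38 and 5.38) were lowest and overlapped. The macrophage markers detected on the astrocyte arrays moved with the astrocyte and neuron difference in Ass1, since neuron arrays had 1 of the 12 on all arrays and summed levels of 7.96 to 8.02. The 9 astrocyte markers moved with it too, with 8 detected on all astrocyte arrays at summed levels of 14.44 to 14.63, and 6 on all neuron arrays at 10.96 to 12.60. Among all groups the summed level of the macrophage markers was highest in MF (16.07 to 16.22), where the mean of Ass1 was lowest. In microglia that sum was 14.53 to 14.62. The part of either marker list in the astrocyte and neuron difference of Ass1 was not tested. Genes closest to Ass1 over the 27 arrays were Lcn2 (r = 0.94), a siderophore-binding protein, Adamtsl4 (0.93) and Phlda1 (0.92).

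The arginases were found mainly in BM-DC. Arg2 was at 7.80, 8.50 and 8.15 in BM-DC and at 7.03, 6.57 and 7.18 in neurons, detected on every array of both groups, which did not overlap. In CD8T it was detected on 2 of 5 arrays, at 5.03 and 4.63. No microglia, ESdM, MF or astrocyte array detected Arg2. The second Arg1 probe (ILMN_2952275) was detected on the 3 BM-DC arrays only, at 5.25, 5.58 and 5.73. The Arg1 probe with the higher mean over all arrays (ILMN_2775157), which stood for the gene, was also detected on all 3 BM-DC arrays but at 4.66, 4.80 and 4.76, and at p below 0.01 on 1 array in all, CD8T array 2 at 5.14, so that the probes disagreed on size.

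BM-DC arrays carried RNA of granulocyte markers, with 9 of 10 detected on all 3 arrays and summed levels of 11.68 to 12.40, among them S100a8 at 11.21 to 11.93. Mcpt8 was the 1 marker of the list not detected there. Of 11 dendritic cell markers, 6 were detected on all BM-DC arrays and 4 on none, with summed levels of 14.02 to 14.32. The gene closest to Arg2 over the 27 arrays was Prtn3 (r = 0.99), a protease of neutrophil granules that is not among the 10 markers. Inhba (0.95), the activin A subunit, and Cck (0.94), the cholecystokinin gene, followed. These correlations take in the neuron arrays as well as BM-DC, and that of Prtn3 was 0.998 over the 8 group means. The part of granulocyte RNA in the arginase values of BM-DC was not tested. On the neuron arrays, where Arg2 was also detected throughout, none of the 10 granulocyte markers was detected on any array. Of 9 astrocyte markers 6 were detected on all neuron arrays, with summed levels of 10.96 to 12.60, and their part in the neuron values of Arg2 was not tested. Genes closest to Arg1, by the probe that stood for the gene, were Cd209d (0.80), Cd177 (0.79) and Frmd7 (0.76). That probe was detected on 7 of 27 arrays, so that these correlations rest mainly on values near background.

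Nos2 and Ptgs2 stayed at or near background in all groups. The Nos2 probe that passed the filter (ILMN_1223499) lay between 4.18 and 4.92 and was detected on 6 of 27 arrays, 1 each in astrocytes, neurons, microglia, ESdM 20, BM-DC and CD8T, and at p below 0.01 on 1 of them. Its other probe was detected on 1 array. For Ptgs2, 1 probe was detected on 1 BM-DC array at 4.83 and the other on none. A level of this size was not distinguishable from the negative controls on most arrays, and whether low amounts of either RNA were present was not detectable with these probes.

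The comparison of ESdM with the arrays labelled microglia addressed how closely cells derived from stem cells resemble cells labelled microglia. Acod1, Ido1 and Ass1 were all lower in ESdM. Acod1 was lower by 42.4-fold (log2 difference -5.41, SE 0.25, adjusted p = 1.69e-14), with all 6 ESdM arrays below all 3 microglia arrays, and by 27.5-fold by its second probe. Fewer cells expressing a gene and less RNA per cell cannot be told apart here. Ido1 was lower by 5.02-fold (-2.33, SE 0.11, adjusted p = 1.37e-14), with 3 of the 6 ESdM arrays detecting it, and Ass1 by 2.17-fold (-1.12, SE 0.21, adjusted p = 4.73e-04), each without overlap between the groups. Of all genes, 20.8% had no overlap of arrays between ESdM and microglia. Together 3 of the 6 members tested passed the call rule, an adjusted p below 0.05 over all genes with a log2 difference of at least 1, a rule that 2.07% of all genes passed. The members were chosen with earlier results of these data known, so such counts, here and below, are no test of the set. Nos2 (-0.19), Arg1 (-0.13) and Arg2 (0.08) were not called and lay near background in both groups.

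Acod1, Ido1 and Ass1 were also lower in ESdM within each of the chips that microglia and ESdM shared. Of these chips, 1 held only array 1 of the microglia, so that no spread among microglia arrays entered there. Within the chips Acod1 differed by -5.24 and -5.56, Ido1 by -2.34 and -2.29, and Ass1 by -1.04 and -1.13. With chip as a block the differences were -5.42, -2.32 and -1.11. The size depended on the background correction. Without it the differences were -3.56 for Acod1, -0.92 for Ido1 and -0.71 for Ass1, so that only Acod1 still passed the minimum of 1, all 3 with an adjusted p below 0.05. Between the ESdM lines no member was called, and the share of all genes called was 0%, with 527 genes at an unadjusted p below 0.05 by limma. ESdM 22 minus ESdM 20 was -0.52 for Acod1 (95% confidence interval -1.12 to 0.08) with an adjusted p of 1. Ido1, which no ESdM 20 array detected, was higher in ESdM 22 by at least 1.06-fold, also with an adjusted p of 1.

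**Figure D3:**
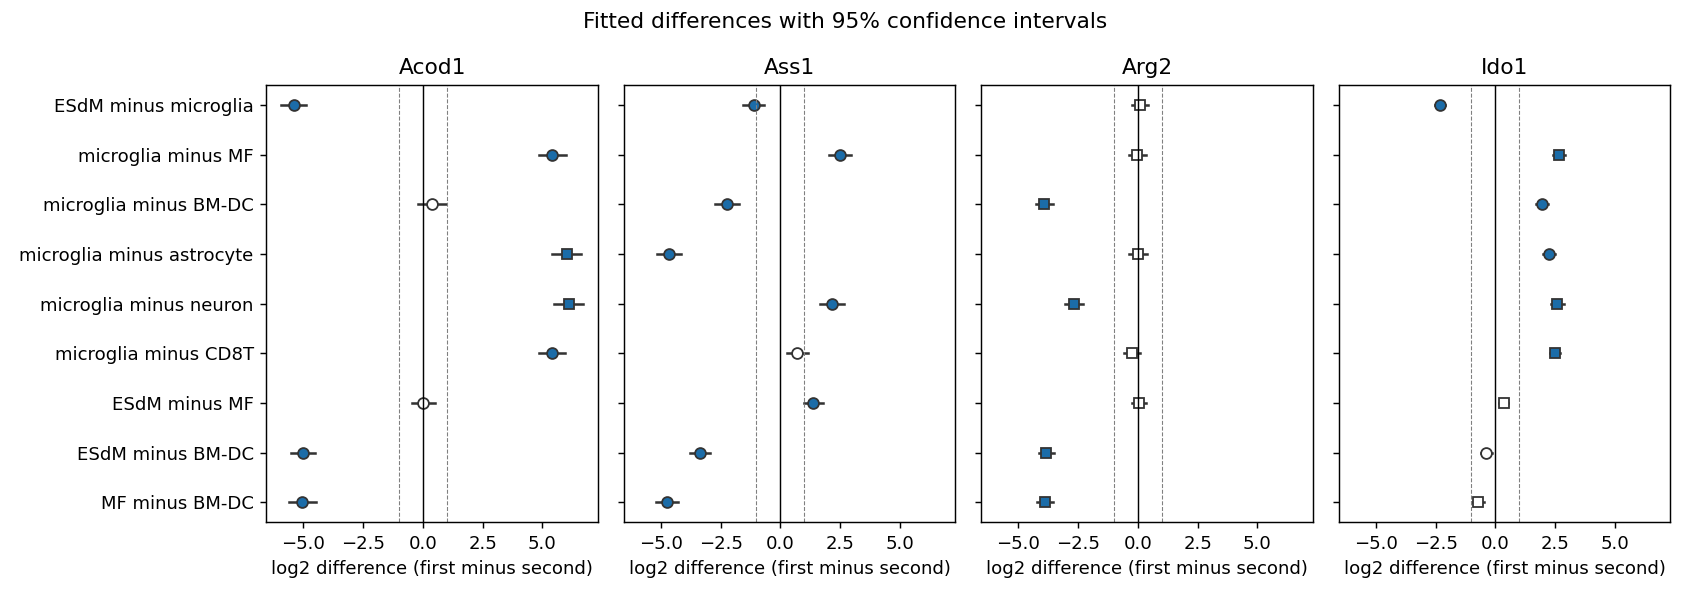
Fitted log2 differences (x axis, first group minus second) of Acod1, Ass1, Arg2 and Ido1 in 9 comparisons (y axis), with 95% confidence intervals as bars. Filled points passed the call rule, squares mark comparisons in which 1 or both groups had no array detecting the gene, so that the plotted value is set against background and is no measured size, and dashed lines mark a difference of 1. Acod1 differed by 5.42 between microglia and MF, by 5.40 between microglia and CD8T and by 0.38 between microglia and BM-DC.

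Against MF, microglia were higher in Acod1 by 43.0-fold (log2 difference 5.42, SE 0.27, adjusted p = 6.61e-15; 27.2-fold by the second probe), in Ass1 by 5.65-fold (2.50, SE 0.23, adjusted p = 6.78e-10) and in Ido1, which no MF array detected, by at least 4.98-fold (adjusted p = 3.42e-16). These 3 of 6 members stood against 22.5% of all genes called. ESdM did not differ from MF by the call rule in Acod1 (0.02, 95% confidence interval -0.46 to 0.49), and Ass1, higher in ESdM by 2.61-fold (1.38, SE 0.19, adjusted p = 6.70e-07), was the 1 member called, beside 23.6% of all genes. Without background correction that Ass1 difference was 0.59 and not called. Microglia are in both of the comparisons with ESdM and with MF, so the differences of about the same size in Acod1, -5.41 and 5.42, share these arrays.

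Against BM-DC, microglia did not differ in Acod1 by the call rule. The difference was 0.38 (95% confidence interval -0.22 to 0.98, adjusted p = 0.309) by the first probe, whose arrays did not overlap, and -0.13 by the second, whose arrays did. Between these groups 63.4% of all genes had no overlap of arrays. Ido1 was higher in microglia by 3.85-fold (1.94, SE 0.12, adjusted p = 6.35e-13). Ass1 was lower by 4.74-fold (-2.25, SE 0.24, adjusted p = 1.20e-08) and Arg2 by at least 11.4-fold (adjusted p = 1.03e-15), so that 3 of 6 members were called, beside 27.3% of all genes. The second Arg1 probe was lower in microglia by at least 1.83-fold (adjusted p = 1.50e-10 over all probes), a bound below the minimum of the call rule, whereas the probe that stood for the gene was not called.

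ESdM and MF shared the low side against BM-DC. Acod1 was lower by 32.5-fold in ESdM (-5.02, SE 0.25) and by 32.9-fold in MF (-5.04, SE 0.27). Ass1 was lower by 10.3-fold in ESdM (-3.36, SE 0.21) and by 26.8-fold in MF (-4.74, SE 0.23). Arg2 was lower by at least 11.5-fold and at least 11.7-fold, with adjusted p-values of all 6 differences from 4.88e-17 to 2.31e-13. In each of these comparisons 3 of 6 members were called, beside 29.6% of all genes for ESdM and 17.7% for MF. Both comparisons use the same BM-DC arrays, and the difference in Ass1 between ESdM and MF is the tested one given above.

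Against the neural cells, microglia were higher in Acod1 by at least 55.4-fold over astrocytes and at least 53.8-fold over neurons, and by at least 27.4-fold and 26.6-fold by the second probe. Ass1 was lower in microglia than in astrocytes by 25.6-fold (-4.68, SE 0.24, adjusted p = 4.20e-15) and higher than in neurons by 4.43-fold (2.15, SE 0.24, adjusted p = 1.44e-08). Ido1 was higher than in astrocytes by 4.78-fold (2.26, SE 0.12) and than in neurons by at least 5.00-fold. Arg2 was lower than in neurons by at least 4.89-fold (adjusted p = 7.32e-13). Thus 3 of 6 members were called against astrocytes, where 35.4% of all genes were, and 4 of 6 against neurons, where 40.5% were.

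In ESdM, Ass1 was lower than in astrocytes by 55.4-fold (-5.79, SE 0.21, adjusted p = 1.57e-18), the 1 member called beside 35.5% of all genes. Against neurons, Arg2 was lower by at least 4.95-fold and Ass1 higher by 2.04-fold (1.03, SE 0.21, adjusted p = 9.80e-05), 2 of 6 beside 40.0%. The Ass1 call rested on neuron array 1, without which the difference was 0.88 and below the minimum, and was also lost without background correction (0.47). Between astrocytes and neurons, Ass1 was higher in astrocytes by 113-fold (6.82, SE 0.24, adjusted p = 1.54e-18) and Arg2 lower by at least 5.21-fold (adjusted p = 9.92e-13), 2 of 6 beside 32.4% of all genes.

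Against CD8T, microglia were higher in Acod1 by 42.2-fold (5.40, SE 0.26), with 3 of 5 CD8T arrays detecting it, or by 26.9-fold by the second probe, and in Ido1 by at least 4.82-fold, 2 of 6 members beside 32.8% of all genes. Ass1 was higher by 0.71 on the log2 scale (SE 0.22, adjusted p = 0.00612) without overlap of arrays and below the minimum of 1. Between these groups 54.6% of all genes had no overlap of arrays. Without background correction the Ido1 differences of microglia from CD8T (0.97), astrocytes (0.90) and BM-DC (0.81) fell below the minimum of 1 as well. No member was called between ESdM and CD8T by limma, where 33.0% of all genes were, and 2 of the 6, Ass1 (-0.41) and Arg1, which no ESdM array detected, had an unadjusted p below 0.05, as had 8258 of all 12814 genes.

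Other genes of the pathways were read from 5 lists that hold none of the 8 members. These lists too were chosen with earlier results of these data known, and their counts are descriptions. Between ESdM and microglia, 1 gene of the metabolic lists was called. Of 25 genes tested of arginine, citrulline and nitric oxide metabolism, 1 was called lower, Gch1, which makes the first committed precursor of the nitric oxide synthase cofactor tetrahydrobiopterin (8.17 against 9.33, log2 difference -1.16, SE 0.15, adjusted p = 4.45e-06), and none higher. This call was lost on the series matrix values and when no background correction was made. The list's median difference was -0.10, beside 0.01 over all genes, of which 0.601% were called higher and 1.47% lower. These are 77 and 188 genes, and without background correction 20 and 85. None of 31 genes of the itaconate and citrate cycle list was called (median -0.04), the largest differences being those of Hmox1, heme oxygenase (0.76, adjusted p = 0.23), and Idh1, the cytosolic isocitrate dehydrogenase (0.67, adjusted p = 0.00438). None of 20 prostanoid and leukotriene genes was called (median -0.03), with Abcc4, a prostaglandin exporter, at 0.95 and Alox5ap, the lipoxygenase-activating protein gene, at 0.31, and none of 12 tryptophan and kynurenine genes (median -0.03), with Kyat3, a kynurenine aminotransferase gene, at -0.57 and Slc7a8, a neutral amino acid transporter gene, at 0.45.

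The fifth list held inducers and regulators of these enzymes. Of 29 genes, 6 were called lower in ESdM and none higher, with a median difference of -0.40. The interferon-responsive transcription factor Irf1, an activator of Nos2 and Ido1, was at 11.42, 11.58 and 11.55 in microglia and between 6.76 and 7.87 in ESdM, without overlap (-3.89, SE 0.22, adjusted p = 1.13e-12). Socs3, a feedback inhibitor of cytokine signalling, differed by -1.92 (SE 0.20) and Irf8, a myeloid interferon regulatory factor, by -1.67 (SE 0.25). Stat2 (-1.66), Klf4 (-1.40) and Jak2 (-1.26) complete the 6 called, of which 3 were called without background correction.

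**Figure D4:**
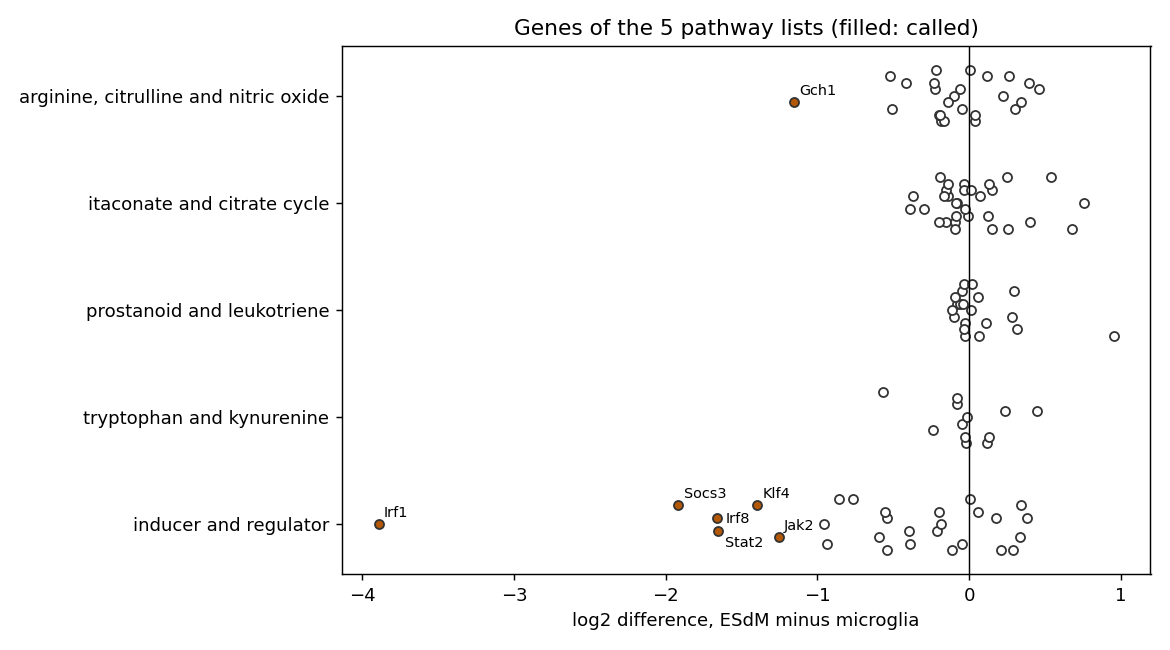
Log2 difference between ESdM and microglia (x axis) of every tested gene of the 5 pathway lists (y axis; points are spread vertically for legibility). Filled points passed the call rule and are named: Gch1, and 6 genes of the inducer and regulator list from Irf1 at -3.89 to Jak2 at -1.26.

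Between microglia and MF, 11.0% of all genes were called higher in microglia and 11.5% lower. With arrays scaled to a common median in place of quantile normalization, 898 genes were higher and 2220 lower, against 1409 and 1473. In the arginine list 6 of 25 were higher and 4 lower, led by Ddah1, which breaks down methylarginine inhibitors of nitric oxide synthases (9.57 against no detection in MF, at least 31.4-fold), Srm (2.28) and Odc1 (1.90) of polyamine synthesis, and by the amino acid transporter chains Slc3a2 (-2.74) and Slc7a7 (-1.88) and Prodh, proline dehydrogenase, at least 2.59-fold lower. In the itaconate and citrate cycle list 4 of 31 were higher, among them the citrate cycle enzymes Fh1 (1.76), Mdh2 (1.24) and Suclg2 (1.18), and 5 lower, among them Hmox1 (-4.15), Idh1 (-1.59) and the stress factor Atf3 (-1.46). In the prostanoid list 1 of 20 was higher, the prostacyclin receptor gene Ptgir (3.53), and 7 lower, with Tbxas1, thromboxane synthase, at least 56.2-fold lower and detected on no microglia array, Hpgds, a prostaglandin D synthase, at -4.40 and Ptges3 at -1.68. Of 12 tryptophan genes 2 were lower, Ahrr (-1.52) and Slc7a8 (-1.23), and of 29 inducers and regulators 7 were higher, led by Socs3 (4.90), Tlr2 (2.88) and Irf1 (2.09), and 6 lower, led by Pparg, at least 25.2-fold, Jak1 (-2.28) and Ifngr1 (-2.09). With median scaling the itaconate and citrate cycle list had 1 gene higher and 6 lower. Without background correction the arginine list had 4 higher and 1 lower, the prostanoid list 1 higher and 3 lower, the tryptophan list 0 called in either direction, and the inducer list 5 higher and 3 lower.

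Between microglia and BM-DC, 14.9% of all genes were called higher in microglia and 12.4% lower. With median scaling 1539 genes were higher and 1977 lower, against 1909 and 1590. In the arginine list 6 were higher, led by Ddah1 (at least 31.4-fold), Srm (2.91) and the cationic amino acid transporter Slc7a6 (at least 3.48-fold), and 5 lower, led by Slc3a2 (-1.99), the arginine transporter Slc7a2 (-1.74) and Gch1 (-1.68). The itaconate and citrate cycle list had 9 of 31 higher, led by Suclg2 (2.97), Fh1 (2.85) and Idh3b (1.94), and 2 lower, Hmox1 (-2.65) and Nqo1 (-2.49), both targets of the oxidative stress factor Nrf2, with a list median of 0.56. In the prostanoid list none of 20 was higher and 7 were lower, led by Pla2g7, Tbxas1 and the leukotriene enzyme gene Alox5, which were at least 27.5-fold, 18.2-fold and 15.1-fold lower and detected on no microglia array. Of the tryptophan genes 4 were lower, led by Ahrr (-3.81), Haao (at least 4.35-fold) and Cyp1b1 (at least 3.95-fold), and of the inducers and regulators 15 were lower, led by Ifngr1 (-2.97), Pparg (at least 5.98-fold) and Il10ra (-2.92), and 2 higher, Irf1 (1.42) and Irf8 (1.35). Without background correction the arginine list had 4 higher and 2 lower, the itaconate and citrate cycle list 6 higher and 2 lower, the prostanoid list 4 lower and the tryptophan list 1 lower. The median of the inducer list was -1.20, beside 0.02 over all genes.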

How the data were processed

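RNA was labelled with biotin and measured on Illumina mouse arrays; per the labels' protocols it was extracted with Trizol and cleaned on RNeasy columns. The deposited scanner table holds bead intensity per probe and array on a linear scale, not normalized as judged from its values, and a detection p-value per probe, which the authors deposited beside it and which moves in steps of 1 in 936. The deposited series matrix, a linear intensity as well, served as an alternative. Software, scanner settings and build are not given in the sources used here.

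The 8 members and the lists were chosen with earlier results of these data known. Background was estimated from the detection p-values and corrected with limma 3.58.1 in R 4.3.3 (offset 16), arrays were quantile normalized and values set to log2. The 25001 probes detected (p below 0.05) on 3 or more arrays entered the tests, and the probe with the highest mean stood for a gene (12814 genes). Of 45281 probes, 34885 had 1 symbol, 18 several and 10378 none. Moderated differences came from a single limma fit to the 27 arrays (a mean for each group, 19 residual degrees of freedom), with p-values adjusted by Benjamini-Hochberg over all genes. The call rule was an adjusted p below 0.05 with a log2 difference of at least 1. ESdM is the mean of both lines. Where no array of the lower group detected a gene, its arrays were raised to their lowest detected value (4.52 to 4.78) and the fold is given as "at least". An adjusted p beside such a fold is that of the fitted difference without this step, and the bound itself was not tested. The model was tested on simulated data. The genes named are all members, for each member detected throughout a group the 3 most correlated genes, and from each list up to 3 called genes in each direction, or the 2 largest differences where none was called; all 6 called regulators were named after their values were seen, as was the S100a8 and S100a9 detail. Alternatives were median scaling, no background correction, an offset of 50, the series matrix, other detection filters, every probe tested, chip or replicate blocks and leaving out arrays. All ESdM descriptions give replicate 3, so numbers were taken from titles. No 2 arrays held identical values. The number of arrays limits the precision. Proteins and probe sequences were not used here.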

Additional observations from a re-analysis of the deposited data

Results flagged for a closer look

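A single array stood apart in 1 of 11 pairs of a member and a group of 4 to 6 arrays examined. The groups were MF, CD8T and both ESdM lines taken as 1 group, so the pairs reuse the same arrays. Nos2 on CD8T array 5 was at 4.92, with the nearest of the other 4 arrays at 4.32, a gap of 0.805 of the range of the group. It was the 1 array on which Nos2 was detected at a detection p below 0.01. Chance flags about 1 in 20 such pairs.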

How the results depend on the processing

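Of the 30 differences of members called, 543 of 558 values under alternatives kept their direction and their side of the threshold, and of 54 not called, 1037 of 1040 remained below it. None of the called values reversed; 50 values that were never called changed sign. All calls that were lost missed the minimum difference of 1 while the adjusted p stayed below 0.05, and the 3 gained were those of the second Arg1 probe against BM-DC. No microglia, ESdM or MF array detected that probe, so these fitted values are set against background, and the bounds of at least 1.83-fold, 1.86-fold and 1.89-fold lie below the minimum difference. Members called between ESdM and microglia fell to 1 without background correction. With an offset of 50 and on the series matrix they fell to 2, as Ass1 missed the minimum difference. All genes called between these groups numbered 105 without background correction, 154 with an offset of 50 and 122 on the series matrix, against 265. Between microglia and CD8T 1 member was called without background correction. Between ESdM and MF 0 were called without it, with an offset of 50 and on the series matrix, where Ass1 was at 0.59, 0.90 and 0.66 (limma, adjusted p at most 0.0016). Between ESdM and neurons 1 was called under each of these 3, and 1 to 2 when arrays were left out in turn. The series matrix also put Ido1 of microglia against BM-DC at 0.91. These settings compress differences of dim probes by construction.

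Replicate numbers did not pair the arrays: deviations of same-numbered microglia and ESdM arrays correlated at -0.13 to 0.11. With a replicate block 267 genes and the same number of members, 3, were called between ESdM and microglia, and no call of a member changed in any comparison. With chip as a random block the estimated correlation was 0.0313. The fixed chip block was not run for astrocytes and neurons, which share 1 chip. Under a detection p of 0.01, Ido1 and Acod1 were detected on no ESdM 22 array and Arg1, by the probe that stood for the gene, on no BM-DC array. The protein comparison planned for arginases and cyclooxygenases was not run.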
